A study of Homo sapiens with 18 samples.

Results

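The ETS family of transcription factors was examined in VCaP cells through 10 listed genes, ERG, ETS2, ETV1, ETV4, ETV5, ETV6, ELF3, EHF, SPDEF, and ELK3. All 10 were present among the 22034 genes of the count table, and 8 passed the filter on low counts. ETV1 and ETV4 did not pass it and are described by their counts. The question was whether a loss of ERG transcript came with changes of other ETS genes.

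ETS factors share a DNA-binding domain that reads a GGAA core in DNA, so family members can meet at the same sites. ERG, ETS2, ETV6, ELF3, EHF, and SPDEF also carry a pointed (PNT) domain, a protein interaction module, which ETV1, ETV4, ETV5, and ELK3 lack. In prostate cancer, the TMPRSS2:ERG fusion places ERG under the promoter of TMPRSS2, while EHF, ELF3, and SPDEF belong to the epithelial branch of the family.

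VCaP is a metastatic prostate cancer cell line with the TMPRSS2:ERG fusion. VCaP-shERG cells carry a short hairpin RNA against ERG that doxycycline (Dox) induces. They were given vehicle (shERG-DMSO) or 1 µg/mL Dox (shERG-Dox). Parental VCaP cells were given DMSO or 50 µM PBITE-1, a small molecule made to bind the PNT domain of ERG, and were collected at 4, 8, or 12 h. Each of the 6 groups had 3 samples, and the 3 PBITE-1 groups shared the same DMSO samples. The labels give no duration for Dox and no collection time for DMSO. No sample with Dox and a nontargeting hairpin was analysed here, so Dox and the hairpin cannot be told apart.

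Total counts ranged from 11308600 to 17483423 per sample. All 6 luminal prostate markers used (KRT8, KRT18, KLK3, KLK2, HOXB13, and FOXA1) were detected in every group. Their summed level was 3790 to 4070 CPM (counts scaled to the same library total) with DMSO and 1680 to 1830 CPM after 12 h of PBITE-1, and it was 4320 to 4490 CPM in shERG-DMSO and 3520 to 3660 CPM in shERG-Dox. The markers did not move together. At 12 h KLK2, KLK3, and HOXB13 fell by 2.13, 3.42, and 1.31 on the log2 scale, KRT8 and FOXA1 rose by 0.95 and 0.37, and KRT18 did not pass the test. With Dox KLK2 and KLK3 fell by 0.59 and 0.24, and HOXB13, KRT8, and FOXA1 rose by 0.75, 0.31, and 0.31. KLK2 alone went from 2760 to 613 CPM by mean at 12 h. The part of these shifts in the ETS results was not tested. The 4 endothelial markers (PECAM1, CDH5, VWF, and KDR), from a cell type that also expresses ERG, summed to 0.281 to 2.49 CPM over all samples. The 4 fibroblast markers (COL1A1, COL1A2, DCN, and PDGFRB) summed to 0.885 to 1.69 CPM in shERG-DMSO and 5.25 to 6.26 CPM in shERG-Dox, and to 1.28 to 2.00 CPM with DMSO and 4.27 to 7.49 CPM at 12 h. COL1A1 made up most of these sums, at 5.26 CPM in shERG-Dox and 6.29 CPM at 12 h by mean, and was called higher in all 4 comparisons with vehicle. COL1A2, DCN, and PDGFRB did not pass the filter on low counts. COL1A2 and DCN were at most at 0.0446 CPM by group mean. PDGFRB went from 0.047 to 0.497 CPM with Dox, and from 0.24 CPM with DMSO to 0 CPM at 8 and 12 h. Over all samples, the 4 blood markers summed to 0.281 to 1.73 CPM and the basal markers KRT14 and TP63 to 0.801 to 6.15 CPM. Within these low sums, genes moved both ways. At 12 h of PBITE-1, VWF, KRT14, and the blood marker CD14 fell by 3.28, 2.35, and 1.87 on the log2 scale. PECAM1, KDR, and TP63 had 0 or 1 count per DMSO sample and 4 to 26 counts per sample at 12 h. All CPM levels, above and below, are after TMM scaling over all 18 samples. Levels below are given as mean ± SD of 3 samples. A gene was said to rise or fall at a Benjamini-Hochberg adjusted p under 0.05 in limma-voom, and was called when the log2 fold change also exceeded 1 in size.

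Levels of different genes were compared per kilobase of exon, over all annotated exons of a gene (7588 bp for ERG, 1914 bp for SPDEF). The order depends on these lengths. Before division by length, ERG was at 303 and SPDEF at 76.1 CPM with DMSO. With DMSO, EHF was the highest of the 10 at 110 ± 1.8 CPM per kb, followed by ERG at 40.0 ± 1.16 and SPDEF at 39.7 ± 4.03 CPM per kb. ERG and SPDEF overlapped between samples. ELF3 (4.16 ± 0.00528 CPM per kb) and ETV6 (3.88 ± 0.28 CPM per kb) also overlapped. ETS2 was at 2.77 ± 0.282 and ELK3 at 2.17 ± 0.226 CPM per kb, without overlap. ETV4, ETV5, and ETV1, the PEA3 subfamily, were each below 0.05 CPM per kb. In shERG-DMSO the order began the same way, with EHF at 113 ± 0.468, ERG at 55.2 ± 1.61, and SPDEF at 28.9 ± 1.99 CPM per kb. There, ETS2 (4.75 ± 0.547 CPM per kb) and ETV6 (4.70 ± 0.111 CPM per kb) overlapped and stood above ELF3 at 3.15 ± 0.209 CPM per kb.

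ERG, the target of the hairpin, lies on the minus strand at chr21:38380027-38661780 (GRCh38). In shERG-DMSO its level was 431, 419, and 407 CPM, and in shERG-Dox it was 156, 157, and 149 CPM. The groups did not overlap, and ERG fell by 1.44 on the log2 scale (SE 0.04, adjusted p = 3.29e-22). In such bulk samples, fewer cells of a kind and less RNA per cell cannot be told apart. With DMSO, ERG was at 294, 304, and 312 CPM. It was at 184, 190, and 185 CPM after 4 h of PBITE-1, at 99.7, 96.8, and 93.2 CPM after 8 h, and at 104, 90.5, and 103 CPM after 12 h. Every treated sample lay below every DMSO sample.

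Against DMSO, ERG fell by 0.68 at 4 h (SE 0.04, adjusted p = 1.67e-16), by 1.62 at 8 h (SE 0.05, adjusted p = 8.52e-28), and by 1.58 at 12 h (SE 0.05, adjusted p = 7.45e-28), all on the log2 scale. From 4 to 8 h the further fall was by 0.94 (SE 0.05, adjusted p = 2.51e-18). From 8 to 12 h the difference was 0.04 (95% confidence interval, −0.07 to 0.15; adjusted p = 0.501). Counts per gene do not separate fusion transcripts from those of the native ERG promoter.

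TMPRSS2, the serine protease gene that donates its promoter to the fusion, lies 2639.6 kb beyond ETS2 on the same chromosome. It was at 66.0 ± 5.13 CPM in shERG-DMSO and 32.6 ± 2.41 CPM in shERG-Dox, and fell by 1.02 on the log2 scale (SE 0.07, adjusted p = 8.38e-13). With PBITE-1 it went from 56.4 ± 1.15 CPM to 21.3 ± 1.88, 14.5 ± 2.68, and 14.3 ± 1.85 CPM at 4, 8, and 12 h. At 4 h TMPRSS2 had fallen by 1.39 on the log2 scale (SE 0.09, adjusted p = 2.43e-16), beside the fall by 0.68 of ERG. At 8 h the TMPRSS2 level had fallen by 1.95 (SE 0.1, adjusted p = 3.96e-20).

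**Figure D1:**
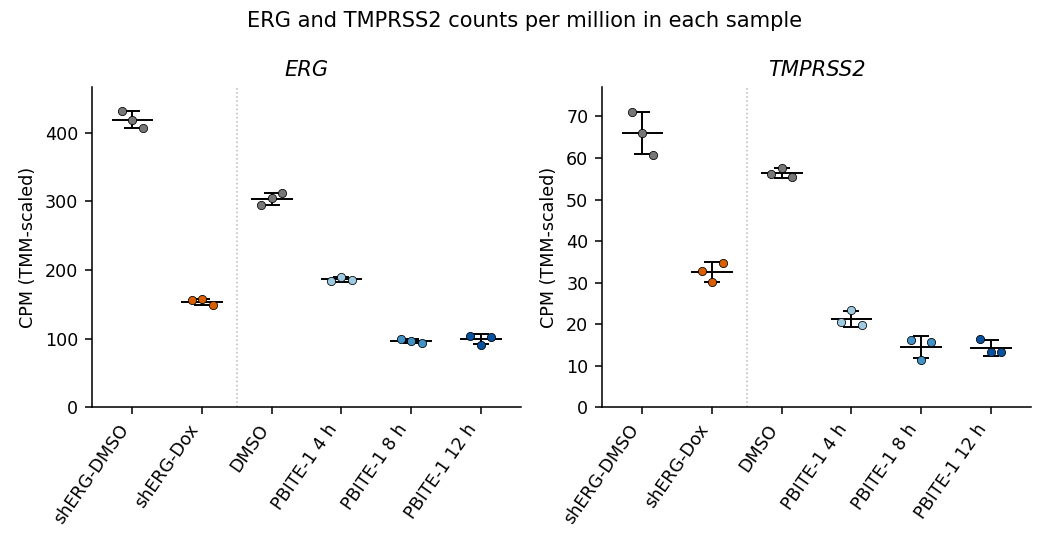
CPM of ERG and TMPRSS2 (y axes, each from 0) in each sample of the 6 groups (x axis); points are samples, horizontal lines the means, and bars the SD of 3 samples, with a dotted line between both experiments. ERG and TMPRSS2 were lower in every treated sample than in its vehicle group.

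With Dox, 2 of the 8 tested members were called lower, ERG and ETS2, and none was called higher. Over all 14164 genes tested, 7.19% were called lower and 12.0% higher. With library size as the only scaling, 506 genes were called lower and 2430 higher, in place of 1019 and 1699, and the median over all genes moved from 0.02 to 0.28 on the log2 scale. By adjusted p alone, 3 members fell (ERG, ETS2, EHF), 2 rose (ELF3, SPDEF), and 3 did not pass (ETV5, ETV6, ELK3), where 70.4% of all genes passed in either direction. The median log2 fold change of the 8 was −0.08, beside 0.02 over all genes.

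ETS2, a PNT-domain factor that responds to RAS and MAPK signaling, is the neighbor of ERG on chromosome 21, at chr21:38805307-38824955 on the plus strand and 143.5 kb away. It was at 21.5, 19.5, and 24.5 CPM in shERG-DMSO and at 10.7, 9.17, and 6.2 CPM in shERG-Dox. The groups did not overlap, and ETS2 fell by 1.35 on the log2 scale (SE 0.14, adjusted p = 3.66e-09). ETS2 was still called with library size as the only scaling, at −1.09.

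ELF3, an epithelial ETS factor, was at 22.1, 24.3, and 21.5 CPM in shERG-DMSO and at 27.0, 30.6, and 28.8 CPM in shERG-Dox. It rose by 0.34 on the log2 scale (SE 0.08, adjusted p = 0.000566). SPDEF, a prostate epithelial factor, was at 58.6, 56.4, and 51.1 CPM in shERG-DMSO and at 74.5, 73.4, and 76.7 CPM in shERG-Dox. SPDEF rose by 0.44 (SE 0.06, adjusted p = 1.2e-07). For ELF3 and SPDEF the Dox samples all lay above the vehicle samples, by less than the fold needed for a call.

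EHF, the most abundant member, was at 497 ± 2.05 CPM in shERG-DMSO and 444 ± 8.83 CPM in shERG-Dox. Its fall by 0.16 (SE 0.03, adjusted p = 4.54e-06) turned into a rise of 0.10 (adjusted p = 0.00223) with library size as the only scaling. ETV6, a repressor with a PNT domain, was at 33.3 ± 0.782 and 33.2 ± 1.27 CPM, a log2 difference of 0.00 (95% confidence interval, −0.14 to 0.14; adjusted p = 0.982). With library size alone that difference was 0.26 (adjusted p = 0.00138). ELK3, a ternary complex factor that works with SRF, differed by −0.24 (95% confidence interval, −0.69 to 0.21; adjusted p = 0.339) and by 0.02 with library size alone.

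The PEA3 genes, ETV1, ETV4, and ETV5, are known as fusion partners in ERG-negative prostate cancers. ETV1 had 0, 1, and 1 counts in shERG-DMSO and 9, 4, and 5 counts in shERG-Dox. The ratio of its summed counts after TMM scaling was 9.16, with a 95% counting interval of 2.19 to 81.4. Without the filter on low counts, ETV1 was called higher in limma-voom (adjusted p = 0.00592). All ETV1 values in shERG-Dox stayed below 0.7 CPM. ETV4 had 0 counts in all 6 VCaP-shERG samples, which allows up to 3 counts, or 0.190 to 0.233 CPM per sample. ETV5 had 1, 2, and 2 counts in shERG-DMSO and 1, 1, and 4 in shERG-Dox, a ratio of 1.22 (0.31 to 5.06). Intervals and floors cover counting error only.

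**Figure D2:**
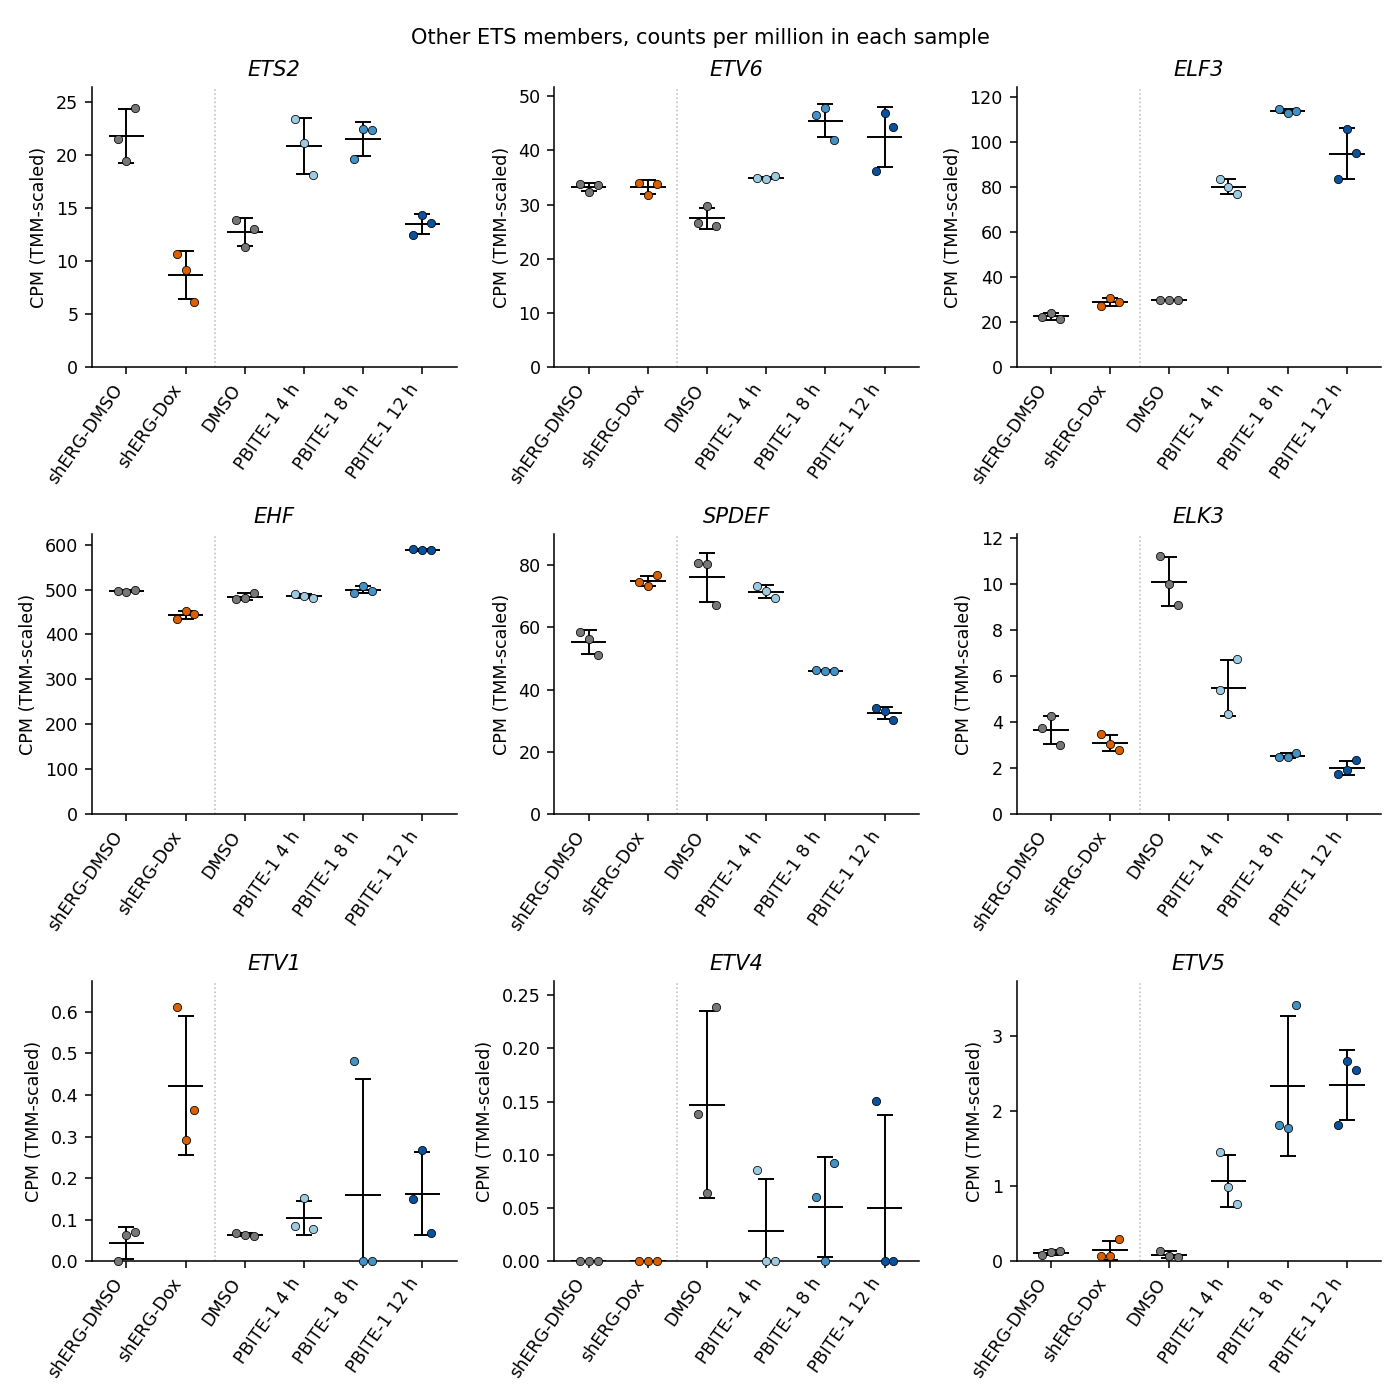
CPM of the 9 members other than ERG (y axes, each from 0 and on its own scale) in each sample of the 6 groups (x axis); points are samples, horizontal lines the means, and bars the SD of 3 samples, with a dotted line between both experiments. ELF3 rose and ELK3 fell in every PBITE-1 group, and ETV1 and ETV4 stayed under 0.7 CPM in every sample.

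ETV5 reached 10 counts in no sample without PBITE-1 and so passed the filter through the PBITE-1 groups alone. Its higher level there was a condition of its being tested, and its calls are a description. At 4 h of PBITE-1, ELF3 and ETV5 were called higher and none lower, beside 7.28% of all genes called higher and 2.99% lower. At 8 h, ELF3 and ETV5 were called higher and ERG and ELK3 lower, beside 14.9% and 8.86% of all genes. At 12 h, ELF3 and ETV5 were called higher and ERG, SPDEF, and ELK3 lower, beside 17.1% and 15.4% of all genes. In order of time, 6, 7, and 7 of the 8 members passed by adjusted p alone, where 51.1%, 72.9%, and 78.9% of all genes passed. Their median log2 fold change was 0.20, 0.42, and 0.23, beside −0.01, −0.02, and −0.01 over all genes. These counts and medians include ETV5, which raises them, so they are also a description and show no shift of the family.

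ELF3 and SPDEF, both epithelial factors, moved in opposite directions after PBITE-1, and the 250 bases before the RefSeq start of each are shown for that reason. In the lines that follow, which run 5′ to 3′ on the strand of the gene (GRCh38.p14), capitals mark each GGAA or its complement TTCC, the ETS core. The ELF3 window is chr1:202010337-202010586 on the plus strand, and the SPDEF window is chr6:34556330-34556579 on the minus strand.
ELF3: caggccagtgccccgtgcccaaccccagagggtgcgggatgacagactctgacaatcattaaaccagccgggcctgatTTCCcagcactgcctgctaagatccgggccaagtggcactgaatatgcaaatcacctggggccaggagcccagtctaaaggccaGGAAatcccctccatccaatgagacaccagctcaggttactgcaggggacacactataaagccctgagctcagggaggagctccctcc
SPDEF: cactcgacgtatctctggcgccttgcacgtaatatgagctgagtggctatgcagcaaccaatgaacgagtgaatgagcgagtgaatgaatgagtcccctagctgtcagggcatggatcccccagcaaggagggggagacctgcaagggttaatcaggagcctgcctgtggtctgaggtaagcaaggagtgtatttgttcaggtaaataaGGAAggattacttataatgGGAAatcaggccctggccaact
Each window held 2 ETS cores. Of 35116 RefSeq windows of this length, 92.7% held at least 1 core, and the median was 3. The longer ETS match CGGAAG was in neither window and in 16.5% of all. A match to the NF-kB consensus was present 1 time in the ELF3 window, where it overlaps 1 of the ETS cores, and was not found in that of SPDEF. It was in 5.2% of all windows. AP-1 (TGANTCA) and E-box (CACGTG) matches were also searched, were in neither window, and were in 6.6% and 6.3% of all. Both strands were searched. Whether any of these matches acts on ELF3 or SPDEF was not tested. RefSeq windows were read for 8 of the 10 members, without ETV4 and ETV5.

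ELF3 was at 30.0, 29.9, and 29.9 CPM with DMSO. It was at 83.9, 80.1, and 76.9 CPM after 4 h of PBITE-1, at 115, 113, and 114 CPM after 8 h, and at 83.5, 106, and 95.4 CPM after 12 h. Every treated sample was above all DMSO samples. ELF3 rose by 1.44 on the log2 scale at 4 h (SE 0.07, adjusted p = 2.43e-19), by 1.95 at 8 h (SE 0.07, adjusted p = 8.99e-25), and by 1.70 at 12 h (SE 0.07, adjusted p = 5.9e-23). From 8 to 12 h ELF3 fell by 0.25 (SE 0.06, adjusted p = 0.000219). Its exons share 664 bp with an antisense gene, ELF3-AS1, and counting by strand is not stated, so reads of both cannot be told apart.

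SPDEF was at 80.6, 80.4, and 67.1 CPM with DMSO and at 73.4, 71.7, and 69.5 CPM after 4 h, which overlapped. It was at 46.3, 46.0, and 45.9 CPM after 8 h and at 34.1, 33.1, and 30.4 CPM after 12 h. These samples were below all of those with DMSO. The SPDEF difference at 4 h was −0.06 (95% confidence interval, −0.18 to 0.06; adjusted p = 0.438). SPDEF fell by 0.69 at 8 h (SE 0.07, adjusted p = 5.39e-12) and by 1.18 at 12 h (SE 0.07, adjusted p = 5.21e-18).

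ELK3 was at 11.2, 9.99, and 9.09 CPM with DMSO, and at 5.37, 4.34, and 6.74 CPM after 4 h of PBITE-1. It was at 2.47, 2.48, and 2.67 CPM after 8 h and at 1.74, 1.94, and 2.34 CPM after 12 h. No ELK3 value with PBITE-1 reached the lowest DMSO value. ELK3 fell by 0.86 at 4 h (SE 0.16, adjusted p = 1.81e-05), by 1.94 at 8 h (SE 0.2, adjusted p = 6.76e-11), and by 2.26 at 12 h (SE 0.22, adjusted p = 9e-12). At 4 h it missed a call, and without PBITE-1 4 h replicate 3 it was called, at −1.03. ELK3 shares 209 exonic bp with an antisense gene.

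ETV5 had 2, 1, and 1 counts with DMSO. It had 17, 13, and 10 counts after 4 h of PBITE-1, 30, 25, and 37 after 8 h, and 24, 40, and 37 after 12 h. Every treated sample was above every DMSO sample, and ETV5 still stayed below 3.5 CPM. At 4 h the ratio of its summed counts after TMM scaling was 12.4 (95% counting interval, 4.47 to 47.5). The later ratios were 25.9 (9.78 to 97.1) and 27.7 (10.5 to 104). ETV5 shares 164 exonic bp with DGKG on the same strand. In contrast, its relatives showed few counts, with 0 to 8 per PBITE-1 sample for ETV1 and 0 to 2 for ETV4.

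ETS2, which had fallen with Dox, was at 13.9, 11.3, and 13.0 CPM with DMSO and at 23.4, 21.2, and 18.1 CPM after 4 h of PBITE-1. It was at 19.7, 22.5, and 22.4 CPM after 8 h and at 12.5, 14.4, and 13.6 CPM after 12 h. The 4 and 8 h samples were above all DMSO samples, and those at 12 h overlapped them. ETS2 rose by 0.72 at 4 h (SE 0.11, adjusted p = 6.07e-07) and by 0.77 at 8 h (SE 0.11, adjusted p = 4.09e-08). At 12 h the ETS2 difference was 0.13 (95% confidence interval, −0.11 to 0.37; adjusted p = 0.3), after a fall by 0.64 from 8 h (SE 0.11, adjusted p = 3.2e-06).

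ETV6 went from 27.5 ± 1.98 CPM with DMSO to 34.9 ± 0.209, 45.4 ± 3.05, and 42.6 ± 5.54 CPM at 4, 8, and 12 h. It rose by 0.37 (SE 0.09, adjusted p = 0.000397), 0.76 (SE 0.08, adjusted p = 6.77e-11), and 0.67 (SE 0.08, adjusted p = 1.27e-09), without a call. EHF was at 484 ± 7.91 CPM with DMSO and at 589 ± 1.78 CPM after 12 h, a rise of 0.32 (SE 0.03, adjusted p = 1.14e-11). At 4 and 8 h the EHF differences were 0.02 (adjusted p = 0.599) and 0.07 (adjusted p = 0.0502).

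**Figure D3:**
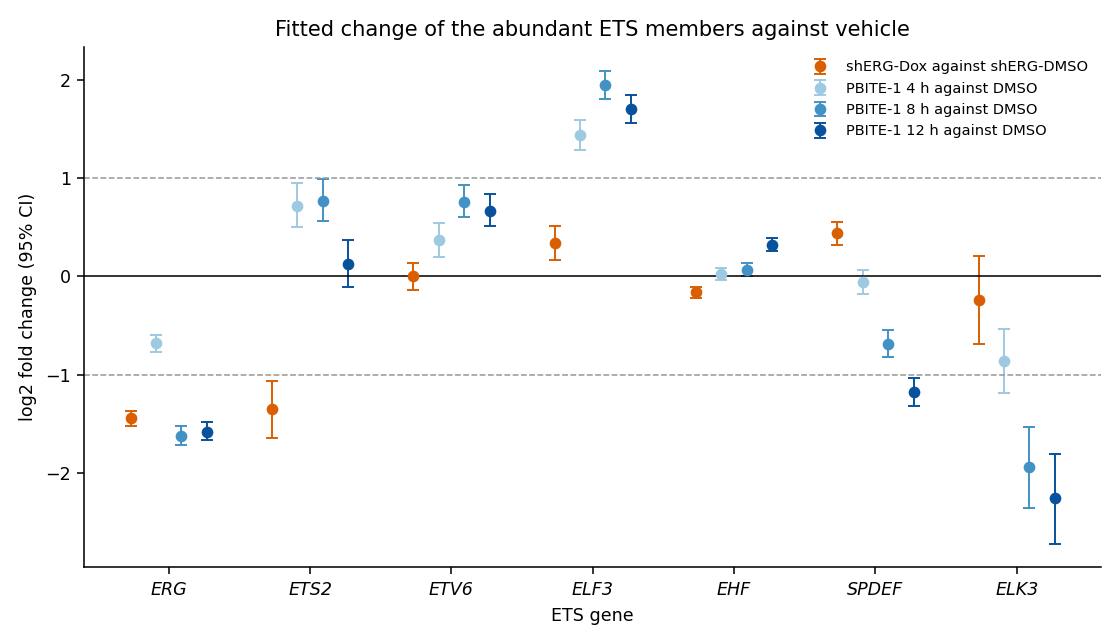
Log2 fold change from limma-voom (y axis) of the 7 members other than ETV1, ETV4, and ETV5 (x axis) with Dox against shERG-DMSO and with PBITE-1 at 3 times against DMSO; bars are 95% confidence intervals and dashed lines mark a log2 fold change of 1 in either direction. ERG was below 0 in all 4 comparisons, ETS2 was below 0 with Dox and above 0 at 4 and 8 h of PBITE-1, and SPDEF was above 0 with Dox and below 0 at 8 and 12 h.

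Within the PBITE-1 series, 12 h was compared with 4 h without the DMSO samples. All 8 tested members passed by adjusted p, as did 9909 of all 14164 genes. SPDEF fell by 1.12 (SE 0.07, adjusted p = 1.35e-16) and ELK3 by 1.40 (SE 0.24, adjusted p = 3.78e-06), and both were called, beside 11.0% of all genes called lower. ETV5 was called higher at 1.18 (SE 0.35, adjusted p = 0.00342), beside 9.08% of all genes. It was not called without PBITE-1 4 h replicate 3. ERG fell further by 0.89 (SE 0.05, adjusted p = 1.07e-18) without reaching a call.

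The responses to Dox and to 12 h of PBITE-1 were compared in an interaction over all 18 samples, in which the line and the agent cannot be told apart. The difference is the log2 response to Dox minus that to PBITE-1. For ERG it was 0.17 (SE 0.06, adjusted p = 0.0101). ERG fell slightly less with Dox. The difference was called for 5 of the 8 members, beside 28.9% of all genes. With library size as the only scaling, 70% of the genes with a called difference had a positive one, in place of 55.1%.

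Of these members, SPDEF had a difference of 1.66 (SE 0.09, adjusted p = 2.74e-20) and ELK3 one of 2.07 (SE 0.31, adjusted p = 1.73e-07). The difference was −1.44 for ETS2 (SE 0.19, adjusted p = 6.17e-09), −1.32 for ELF3 (SE 0.12, adjusted p = 9.86e-14), and −4.35 for ETV5 (SE 1.01). The ETV5 value rests on 1 to 4 counts per sample in 3 of the 4 groups, and ETV5 was tested only because its counts were higher in the PBITE-1 samples. ETV6 (−0.63, SE 0.11, adjusted p = 2.68e-06) and EHF (−0.44, SE 0.04, adjusted p = 7.03e-13) also differed, below the fold for a call.

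The lines also differed before treatment. In shERG-DMSO against DMSO, ELK3 was called lower at −1.45 (SE 0.17, adjusted p = 2.33e-09), beside 5.0% of all genes called lower and 1.19% higher. ELK3 was at 3.66 ± 0.611 CPM in shERG-DMSO and 10.1 ± 1.05 CPM with DMSO. ERG was higher in shERG-DMSO by 0.46 (SE 0.04, adjusted p = 1.09e-14), as was ETS2 by 0.77 (SE 0.12, adjusted p = 3.92e-07). SPDEF was lower there by −0.45 (SE 0.06, adjusted p = 3.53e-08) and ELF3 by −0.40 (SE 0.09, adjusted p = 0.000286). EHF differed by 0.04 (95% confidence interval, −0.02 to 0.10; adjusted p = 0.312). Line, culture, and library preparation cannot be told apart here.

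The other 18 ETS genes were all in the table, and 13 were tested. FLI1, the closest relative of ERG, had 0 or 1 count in every sample, and ETV3L, SPI1, SPIB, and SPIC were also not tested. With Dox, ELF5, an epithelial factor, was called higher at 1.17 (SE 0.2, adjusted p = 8.21e-06), and none was called lower, where 12.0% of all genes were called higher and 7.19% lower. At 4 h of PBITE-1, ETS1 and ETV7 were called higher and FEV lower (all genes, 7.28% and 2.99%). At 8 h, ETS1, ETV7, ELF1, and ERF were called higher and ELF5 and FEV lower (all genes, 14.9% and 8.86%). At 12 h, ETS1, ETV7, and ELF1 were called higher and ELF4, ELF5, and FEV lower (all genes, 17.1% and 15.4%). The median of the 13 was 0.19 with Dox and 0.04, 0.12, and 0.13 at 4, 8, and 12 h.

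ETS1, the PNT-domain relative of ETS2, was at 3.04 ± 0.32 CPM with DMSO and 11.0 ± 1.1, 20.9 ± 1.63, and 14.5 ± 2.31 CPM at 4, 8, and 12 h. It rose by 1.86 (SE 0.19, adjusted p = 1.67e-10), 2.78 (SE 0.18, adjusted p = 8.96e-17), and 2.27 (SE 0.19, adjusted p = 4.82e-14). ETV7, the closest relative of ETV6 and known as an interferon-inducible gene, was at 0.869 ± 0.132 CPM with DMSO and 20.1 ± 2.34 CPM after 8 h, a rise of 4.50 (SE 0.33, adjusted p = 2.24e-15). Both peaked at 8 h by mean, as ELF3 did. ELF4 went the other way, from 3.38 ± 0.306 CPM to 0.371 ± 0.143 CPM at 12 h, a fall by 3.07 (SE 0.43, adjusted p = 4.13e-08). With Dox, the ETS1 difference was 0.63 (95% confidence interval, 0.01 to 1.25; adjusted p = 0.0629).

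**Figure D4:**
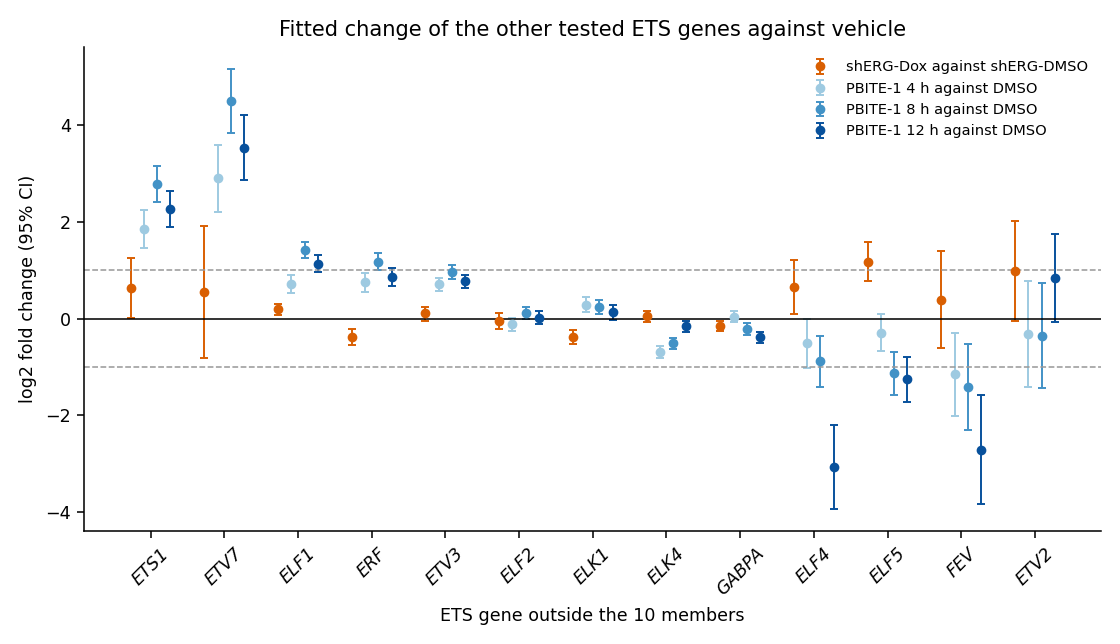
Log2 fold change from limma-voom (y axis) of the 13 tested ETS genes outside the 10 members (x axis) with Dox against shERG-DMSO and with PBITE-1 at 3 times against DMSO; bars are 95% confidence intervals and dashed lines mark a log2 fold change of 1 in either direction. ETS1 and ETV7 were above 1 at all 3 times of PBITE-1, and ELF4 was at −3.07 at 12 h.

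Summed over the 28 ETS genes, the level per kilobase was 278 ± 3.88 CPM per kb in shERG-DMSO and 237 ± 2.84 CPM per kb in shERG-Dox. With library size as the only scaling these sums were 271 ± 3.04 and 276 ± 3.53 CPM per kb, so the direction depended on the scaling. In parental cells the sum was 266 CPM per kb with DMSO and 272, 277, and 270 CPM per kb at 4, 8, and 12 h. Shares of the sum do not depend on the scaling, but they do depend on the exonic lengths used. The share of ERG went from 19.9% ± 0.301 to 8.57% ± 0.255 with Dox, and from 15.0% ± 0.457 to 9.0% ± 0.219, 4.59% ± 0.174, and 4.85% ± 0.48 with PBITE-1. The share of EHF was 40.6% to 49.7% by group mean, and that of SPDEF went from 10.4% ± 0.58 to 16.5% ± 0.432 with Dox and from 14.9% ± 1.47 to 6.30% ± 0.496 at 12 h of PBITE-1.

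**Figure D5:**
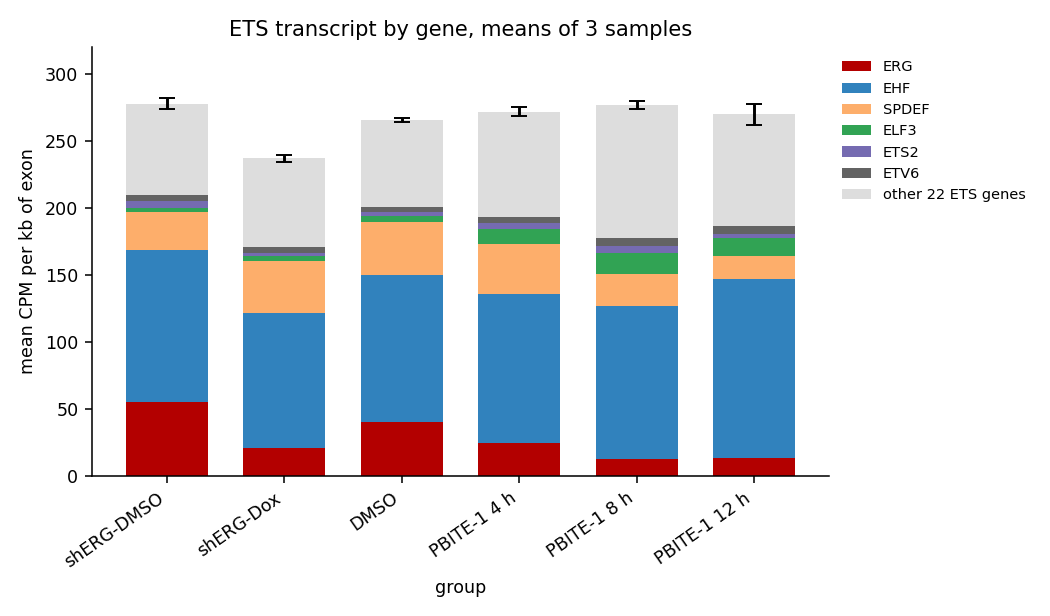
Stacked mean CPM per kb of exon (y axis, from 0) for 6 ETS genes and the other 22 together in each group (x axis); bars with caps are the SD of the sum over 3 samples. EHF made up the largest block in every group, and the ERG block went from 55.2 to 20.3 CPM per kb with Dox and from 40.0 to 13.1 CPM per kb after 12 h of PBITE-1.

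Genes known to act on ETS genes or proteins, or together with ETS proteins, were examined as a list of 11, of which 10 were tested. None was called with Dox or at 4 h of PBITE-1. With Dox and at 4, 8, and 12 h, 7.19%, 2.99%, 8.86%, and 15.4% of all genes were called lower. The shares called higher were 12.0%, 7.28%, 14.9%, and 17.1%. CIC, which represses the ETV1, ETV4, and ETV5 genes, was called higher at 8 h (1.22, SE 0.07, adjusted p = 1.96e-19) and at 12 h (1.56, SE 0.06, adjusted p = 1.48e-23). Its partner ATXN1 was called higher at 12 h (1.5, SE 0.1, adjusted p = 2.27e-16). GABPB1, the partner of GABPA, was called lower at 12 h at −1.17 (SE 0.08, adjusted p = 2.33e-16). CIC and ETV5 transcripts were thus both higher at 8 and 12 h. By adjusted p alone, 4 of the 10 fell and 4 rose with Dox, 2 fell and 7 rose at 4 h, 1 fell and 6 rose at 8 h, and 2 fell and 7 rose at 12 h. Over all genes, 70.4%, 51.1%, 72.9%, and 78.9% passed in these comparisons.

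Of 13 genes that respond to MAPK signaling or to CIC, commonly read beside ETV4 and ETV5, 12 were tested. They did not move one way. With PBITE-1, 2 were called lower at each time (SPRY1 and SPRY4), and 4, 3, and 3 were called higher at 4, 8, and 12 h. Of all genes, 2.99%, 8.86%, and 15.4% were called lower at these times and 7.28%, 14.9%, and 17.1% higher. DUSP5, an ERK phosphatase, rose by 3.44 (SE 0.27, adjusted p = 7.73e-14) at 4 h and stayed called at 8 and 12 h, as did PHLDA1 (3.78 at 4 h, SE 0.16, adjusted p = 3.79e-22). SPRY4, an inhibitor of receptor tyrosine kinase signaling, fell by 2.05 at 4 h (SE 0.24, adjusted p = 4.07e-09) and by 3.62 at 12 h (SE 0.36, adjusted p = 8.6e-12). DUSP6 and SPRY2 were called higher at 4 h only among the 3 times, at 1.29 and 1.15, and IL17RD at 8 and 12 h, at 1.06 and 1.27. The list had a median of 0.36, 0.64, and 0.24 at 4, 8, and 12 h.

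With Dox, 3 of these genes were called lower and 1 higher, beside 7.19% and 12.0% of all genes, with a median of −0.47. DUSP6 fell by 2.29 (SE 0.68, adjusted p = 0.00413) from 8 to 13 counts per sample to 0 to 6, DUSP4 fell by 1.39 (SE 0.27, adjusted p = 6.13e-05), and SPRY1 fell by 1.45 (SE 0.15, adjusted p = 2.48e-09). SPRED3 rose by 2.68 (SE 0.36, adjusted p = 2.79e-07). SPRY1 was therefore called lower with both agents. SPRY4 had only 6 to 9 counts per sample in shERG-DMSO, against 131 to 156 with DMSO, so a fall with Dox could hardly be seen.

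To place ERG among all genes, 11310 genes with a mean count of at least 50 were ranked by the Pearson correlation of their log2 CPM with that of ERG over 18 samples, centered within each experiment. These samples fall into 6 groups and share normalization, so the value describes likeness only. TSPAN14 was the most alike (0.996), followed by TRIP13 (0.989), TATDN2 (0.987), DDX11 (0.986), and SPC24 (0.984). TMPRSS2 ranked 395 (0.931). Among the ranked ETS genes, ELK3 was the nearest to ERG (0.821, rank 1682), and ELF1 (−0.831) and ELF3 (−0.825) were among the most opposed. ELK3 did not pass the test with Dox (−0.24, adjusted p = 0.339), where ERG fell by 1.44. TSPAN14 fell by 0.83 with Dox (SE 0.04, adjusted p = 3.94e-16) and by 1.05 at 8 h of PBITE-1 (SE 0.05, adjusted p = 1.14e-21).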

How the data were processed

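RNA-seq was performed by the authors on rRNA-depleted total RNA of 18 VCaP samples. The deposited values are whole-number counts for each gene that were not normalized. The submitters' processing notes name STAR, featureCounts, and hg38, and the study's methods name Kallisto, edgeR, and limma-voom. Which of these made the counts, the annotation release, and the use of strand are not given in the sources used here. Of 22034 identifiers, 22011 were matched to a symbol. Positions and exonic lengths came from GENCODE on GRCh38, and promoter windows from RefSeq (GRCh38.p14).

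The members, gene lists, and tests were chosen with earlier results of these data known. Named genes were the 10 members, TMPRSS2, the 5 genes most like ERG, and genes of the fixed lists that were called. Some genes of the lists are not reported here. FLI1, ETV3L, SPI1, SPIB, and SPIC were named after their values were seen.

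Genes were kept by filterByExpr over the 6 groups, which left 14164 genes (64.3%). Counts were scaled by TMM (edgeR 4.0.16) and fitted with voom, lmFit, and eBayes (limma 3.58.1, R 4.3.3), two-sided, with Benjamini-Hochberg adjustment over all genes tested. Each experiment had its own fit, of 6 VCaP-shERG or 12 parental samples, and the interaction and the comparison of lines used all 18. A call needed an adjusted p below 0.05 and a log2 fold change beyond 1 in size. ETV5 and other genes near 0 counts have fitted values that depend on the small count voom adds, so ratios of counts with 95% exact intervals are given. The floor was 3 counts per sample. The procedure was tested on simulated data.

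Depth was 11308600 to 17483423 counts per sample. Replicates of a group differed by 1.71 to 5.17 chi-square per degree of freedom, so none was counted as a copy. The sources call them biological replicates without naming separate cultures, so p-values measure the spread between these samples. As alternatives, the quasi-likelihood test of edgeR was run, as were DESeq2 1.42.0, RLE or library size scaling, other filters, all 18 or only the compared samples, the replicate number as a block, adjusted p alone, and leaving out each sample.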

Additional observations from a re-analysis of the deposited data

Results flagged for a closer look

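For 5 members the response to Dox differed from the response to PBITE-1 at 12 h by the interaction test in limma, past the fold for a call. The log2 response to Dox minus that to PBITE-1 was −1.44 for ETS2 (adjusted p = 6.17e-09), −1.32 for ELF3 (adjusted p = 9.86e-14), −4.35 for ETV5, 1.66 for SPDEF (adjusted p = 2.74e-20), and 2.07 for ELK3 (adjusted p = 1.73e-07). Over all genes tested, 28.9% had a called difference. ELK3 started from a lower level in VCaP-shERG cells than in parental cells, 3.66 against 10.1 CPM, and ETV5 passed the filter on low counts only through the PBITE-1 samples, so its value is a description. The agents were given to different lines, so agent and line cannot be told apart.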

How the results depend on the processing

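Of 579 alternative values, 565 were classed as the same as the main value. Among them, 468 were log2 fold changes of members, of which 462 kept their direction and their side of the threshold. The rest were counts of called members, and a small change of such a count was also classed as the same. By adjusted p alone, the members passing numbered 5 with Dox, 6 at 4 h, 7 at 8 h, 8 for 12 against 4 h, 8 for the interaction, and 6 between the lines, in place of 2, 2, 4, 3, 5, and 1. Of all 14164 genes, 9974, 7236, 10319, 9909, 9684, and 6606 passed in the same order. With at least 10 counts in every sample, 1 member was called at 4 h (ELF3, since ETV5 left the test), and with no filter 2 were called between the lines (ELK3 and ETV4). That count minimum also lowered the genes called from 2718 to 1664 with Dox, 1455 to 767 at 4 h, 3360 to 2142 at 8 h, 2847 to 1875 for 12 against 4 h, and 876 to 386 between the lines, over 11807 genes tested. With library size as the only scaling, the sign turned for EHF (0.10) and ELK3 (0.02) with Dox and for EHF at 4 h (−0.03). Leaving out 1 sample gave ETV5 with Dox between −0.49 and 0.35, with a negative value without shERG-DMSO replicate 1 (−0.12) or shERG-Dox replicate 3, and ELK3 at 4 h between −1.03 and −0.70. In the fits that left out 1 sample, ERG stayed between −1.47 and −1.42 with Dox and between −1.64 and −1.51 at 8 and 12 h. These ranges do not cover library size scaling, which moved the median over all genes with Dox from 0.02 to 0.28.

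Same-numbered samples correlated at −0.048 to 0.112 in their deviations, so they share only a number. With the replicate block, 2 members were called with Dox and 2669 genes in place of 2718. Depth limits ETV1, ETV4, and ETV5, which had 0 to 9 counts in vehicle and Dox samples.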
